A study of Eublepharis macularius with 23 samples.

Results

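Heat shock proteins and chaperones are the proteins that help other proteins fold, keep them from clumping and hand those that cannot be rescued to the degradation machinery. Their genes were followed here in the dorsal skin of leopard gecko (*Eublepharis macularius*) embryos of the hypomelanistic lines Hypome 1 and Hypome 3. Members were the annotated genes whose symbol starts with one of the family names (HSPA, HSP90, HSPB, HSPD1, HSPE1, HSPH1, DNAJA, DNAJB, DNAJC, BAG, CCT) followed by its number, the gene *TCP1*, and the numbered LOC genes that the annotation likens to a DNAJ or HSP gene. The rule used names only and found 87 of the 22064 genes counted, 12 of them LOC genes, spread over 19 scaffolds. None lay in the interval of Scaffold 3 that co-segregates with Hypome 1.

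The Hypome 1 libraries came from 2 wild-type (+/+), 3 heterozygous (m h1/+) and 4 homozygous (m h1/m h1) embryos, and the Hypome 3 libraries used here from 3 heterozygous embryos. All were dorsal skin at embryonic day 40, when melanin has begun to form. The Hypome 1 embryos had one pair of heterozygous parents and were collected over several breeding seasons, their eggs were kept at a temperature that gives mostly females, and their sex was not determined. Each library is a bulk extract of whole skin, in which fewer cells of a type and less RNA per cell cannot be told apart. Hypome 2 and the Hypome 3 homozygous skin were not analysed here.

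Chaperones work in layers. HSP70 proteins bind stretches of unfolded chain in cycles of ATP hydrolysis, which J proteins (DNAJA, DNAJB and DNAJC) start and BAG proteins and HSP110 end by releasing the nucleotide. HSP90 finishes the folding of kinases and hormone receptors, the chaperonin ring built from TCP1 and the CCT subunits encloses actin and tubulin, and small heat shock proteins hold unfolded chains without ATP until HSP70 takes over. The endoplasmic reticulum and the mitochondrion have their own sets. Some members are made at all times, while others are induced through heat shock factor 1 when unfolded protein accumulates. In mammalian skin, differentiating keratinocytes are rich in small heat shock proteins, and muscle uses *HSPB1*, *HSPB3*, *HSPB6*, *HSPB7*, *HSPB8* and *BAG3* to look after its contractile filaments.

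Library totals ran from 32455975 to 52017277 counts in Hypome 1 and from 16826633 to 21208295 in Hypome 3. The members took 0.610% to 0.820% of the counts of a Hypome 1 library and 0.674% to 0.762% of a Hypome 3 library. A check of the tissue found the keratinocyte markers present throughout, with a sum of 7 genes between 3035 and 5680 CPM (counts scaled to a common library size with edgeR's TMM factors, as all CPM here). The sum of 10 skeletal muscle markers ran from 20.7 CPM in homozygous replicate 3 to 5535 CPM in homozygous replicate 1, so the dissected skin held very unequal amounts of muscle RNA. Heterozygous replicate 2 and homozygous replicate 1 also stood apart among the members. Of the 81 members that passed the filter on low counts, 44 had their lowest CPM of the 9 libraries in heterozygous replicate 2, which is 54.3% against 22.2% of all genes tested. Homozygous replicate 1 gave the highest CPM for 37 members, 45.7% against 23.9% of all genes. That library had the lowest TMM factor, 0.78 against 0.96 to 1.08 in the others, and a low factor raises CPM. Members took 0.738% of its counts, and they summed to 6305 TPM, where the 9 libraries ran from 5704 to 7253 TPM. The study's list of libraries, read by genotype and replicate number, gives homozygous replicates 1 and 4 the lowest RNA integrity. In the Hypome 1 libraries 57.8% to 65.5% of the counts between 10 and 2000 were even, against 49.9% to 50.0% in the Hypome 3 libraries.

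On the scale of transcript abundance (TPM), which divides by gene length and so allows genes to be compared with each other, the members differed widely. Such levels do not tell members made at all times from induced ones, and induction was not measured. The most abundant member was *HSP90AB1*, the constitutive cytosolic HSP90, with a mean of 636 TPM over the 9 Hypome 1 libraries. *HSPB6* followed with 536 TPM, *HSPA2* with 463 TPM and *LOC129342777* (*HSPA8-like*) with 359 TPM. *CCT3* of the chaperonin ring stood at 351 TPM, the endoplasmic reticulum HSP90 *HSP90B1* at 315 TPM, the constitutive HSP70 *HSPA8* at 294 TPM and the endoplasmic reticulum HSP70 *HSPA5* at 236 TPM. Other than the mitochondrial *DNAJC15*, with 250 TPM, the J proteins were lower, led by the cytosolic *DNAJA2* with 116 TPM. *HSPH1*, the heat-inducible HSP110, was at 7.09 TPM. *HSPB6* and *HSPA2* differ from the other leaders in how unevenly they were spread: *HSPB6* ran from 51.9 to 1033 TPM and *HSPA2* from 164 to 629 TPM, while *HSP90AB1* stayed between 516 and 710 TPM.

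The 6 members that did not pass the filter were at or near 0. *DNAJB8*, *DNAJC5B* and *LOC129331814* (*HSPB7-like*) had no count in any of the 12 libraries. *LOC129330805* (*DNAJB6-like*) reached 6 counts, *DNAJB13* 22 counts and *LOC129333363* (*HSP30D-like*) 28 counts in their highest library.

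The comparison with the homozygous skin asks whether the hypomelanistic genotype comes with a chaperone or stress response. No member passed an adjusted p of 0.05 with edgeR's quasi-likelihood test in any of the 3 genotype comparisons. Against wild-type skin 0 of 81 members were called (0.0179% of all 16751 genes were). At an unadjusted p under 0.05, 6 members lay higher in homozygous skin, 7.41% against 4.97% of all genes, and 1 lay lower, 1.23% against 3.56%. DESeq2 called 0 of 80 members (0.99% of all genes were called higher and 0.318% lower). Against heterozygous skin edgeR again called 0 of 81 (0.0358% of all genes), with 10 members higher at an unadjusted p under 0.05, 12.3% against 9.7% of all genes, and 1 lower, 1.23% against 8.13%. There DESeq2 called 6 of 78 members, 5 higher (4.61% of all genes) and 1 lower (2.5% of all genes). Heterozygous and wild-type skin gave 0 members called by edgeR (0.0% of all genes) or by DESeq2 (0 of all genes). At an unadjusted p under 0.05 there were 0 members in either direction (0.878% of all genes higher, 0.657% lower).

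The median log2 fold change of the members tested was 0.12 in homozygous against wild-type skin, beside 0.01 for all genes, and 0.14 against heterozygous skin, beside -0.004 for all genes. In heterozygous against wild-type skin it was -0.01. Both homozygous comparisons use the same 4 libraries, so their values are not independent of each other. Scaling to total counts in place of TMM lowered the median of all genes by 0.20 and 0.18 on the log2 scale in the homozygous comparisons, and the members' medians became -0.09 and -0.04. Small positive values below are therefore relative to the TMM scale.

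**Figure D1:**
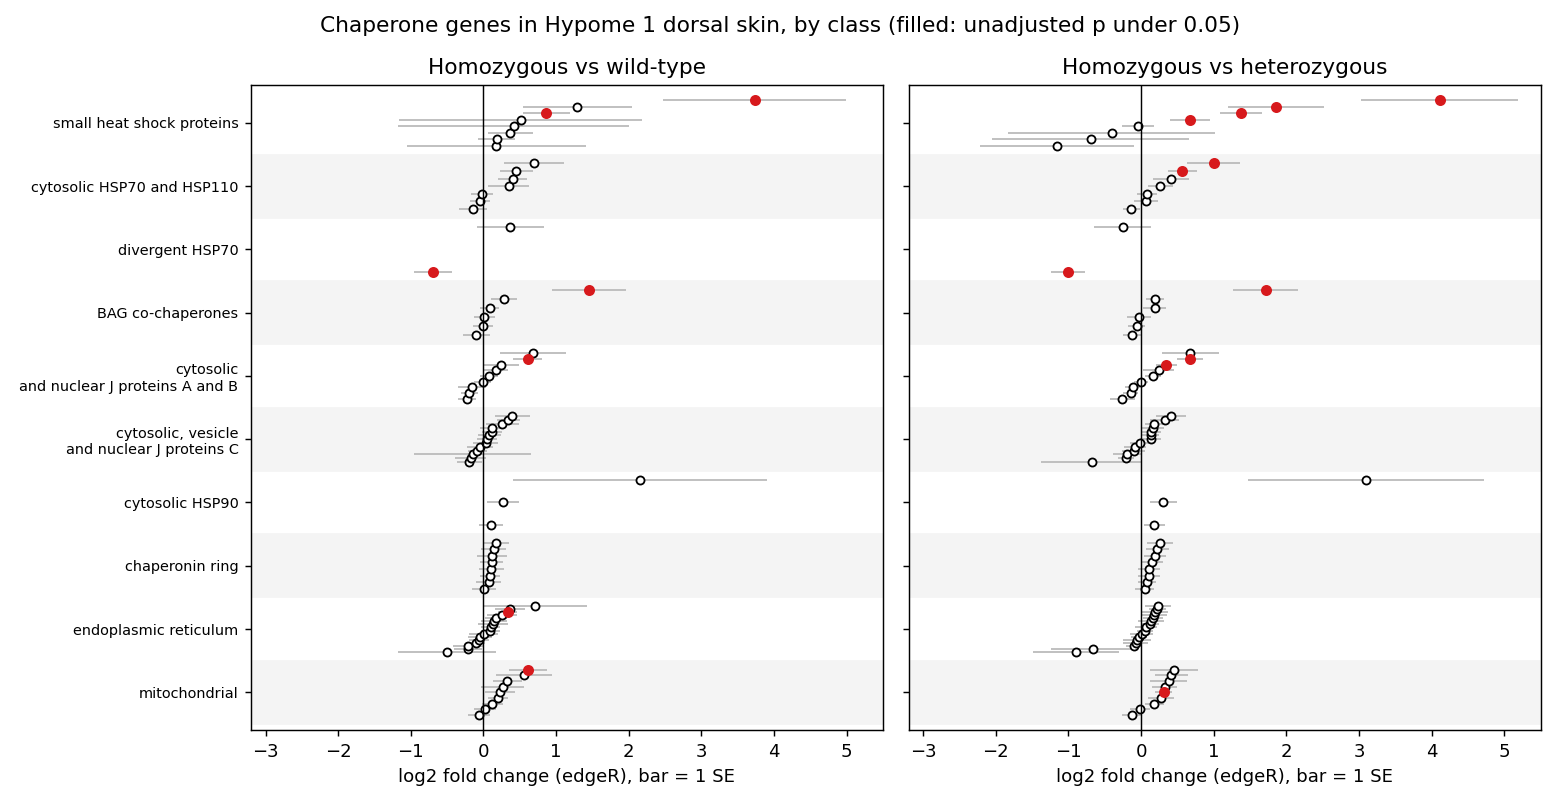
Log2 fold change (x axis, edgeR, bars of 1 standard error) of each of the 81 members tested, grouped by class (y axis), in homozygous against wild-type (left) and against heterozygous skin (right); filled points have an unadjusted p under 0.05. The small heat shock proteins spread from -1.15 to 4.11 against heterozygous skin, while the 8 chaperonin ring subunits sit between 0.05 and 0.26.

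The small heat shock proteins held the largest fold changes among members with an unadjusted p under 0.05. They comprised 10 genes, of which 8 were tested. Against wild-type skin all 8 lay above 0, and 2 had an unadjusted p under 0.05 (4.97% of all genes were higher at that p). Against heterozygous skin 4 lay above and 4 below 0. The 4 above 0, higher in homozygous skin, had an unadjusted p under 0.05 (9.7% of all genes were higher). A pair of these, *LOC129331057* (*HSP30-like*, 10891346 to 10892263) and *LOC129330817* (*HSP30C-like*, 10896878 to 10897852), are single-exon neighbours on the plus strand of Scaffold 5 in the assembly used for the counts. HSP30 proteins are the small heat shock proteins of frogs and fish that appear after heat or other stress. Because both genes are of one family, reads that match both may have been lost or misplaced.

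*HSP30-like* was almost silent in most of the libraries. It had 0.854 and 0.740 CPM in the wild-type, 0.644, 0.151 and 1.06 CPM in the heterozygous, and 24.3, 8.27, 0.443 and 9.72 CPM in the homozygous libraries. So 3 of the 4 homozygous libraries lay far above all the others, while homozygous replicate 3 lay among the controls. The fitted log2 fold change was 4.11 ± 1.08 (SE) against heterozygous skin (edgeR adjusted p = 0.111, DESeq2 adjusted p = 0.0061) and 3.74 ± 1.26 against wild-type skin (edgeR adjusted p = 0.467). Leaving out homozygous replicate 3, the library among the controls, gave an edgeR adjusted p of 0.0251 against heterozygous skin. That fit removes the exception, so its p is no support for a difference. Without homozygous replicate 1 the log2 fold change against heterozygous skin was 3.32.

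*HSP30C-like* was present everywhere, at 11.8 and 5.44 CPM in the wild-type, 5.53, 4.92 and 7.69 CPM in the heterozygous, and 19.5, 15.5, 11.97 and 15.9 CPM in the homozygous libraries. All 4 homozygous libraries lay above all 5 others, although wild-type replicate 1 nearly reached homozygous replicate 3. Its log2 fold change against heterozygous skin, 1.38 ± 0.29, had the smallest adjusted p of all members (edgeR 0.0872, DESeq2 2.43e-04, exact permutation test, 2-sided, p = 0.0286, the smallest that 4 against 3 libraries allow). Members were in part named for groups that do not overlap, so the permutation p only restates that separation. Of all genes, 8.94% lay entirely above heterozygous skin in the same way. Against wild-type skin it was 0.87 ± 0.33 (edgeR adjusted p = 0.508), with 1.53 without wild-type replicate 1 and 0.41 without wild-type replicate 2.

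*HSPB6*, which encodes HSP20 and is known in mammals from smooth and striated muscle, was the most abundant small heat shock protein and, among the heterozygous Hypome 1 libraries, the one with the widest spread. It had 256 and 125 CPM in wild-type, 170, 21.7 and 193 CPM in heterozygous, and 742, 394, 233 and 492 CPM in homozygous skin. The homozygous libraries lay above the heterozygous ones but overlapped wild-type replicate 1. The log2 fold change was 1.86 ± 0.66 against heterozygous skin (edgeR adjusted p = 0.190, DESeq2 adjusted p = 0.112) and 1.29 ± 0.75 against wild-type skin (edgeR adjusted p = 0.693). *HSPB8*, the partner of BAG3 in the removal of damaged filament proteins, had 71.7 and 64.9, then 57.9, 30.1 and 78.7, then 106, 94.0, 69.6 and 83.3 CPM in the same order. Its groups overlapped, with log2 fold changes of 0.67 ± 0.28 against heterozygous and 0.37 ± 0.31 against wild-type skin (edgeR adjusted p = 0.247 and 0.783), and 0.37 against heterozygous skin without heterozygous replicate 2.

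*HSPB1*, *HSPB3* and *HSPB7* followed another pattern, in which the groups overlapped in both homozygous comparisons. *HSPB2*, *HSPB3* and *HSPB7* were picked for this account after their values were seen. *HSPB1* (HSP27) had 6.94 and 8.83 CPM in wild-type, 24.6, 4.62 and 30.3 CPM in heterozygous, and 31.2, 1.56, 1.33 and 1.94 CPM in homozygous skin. Homozygous replicate 1 and heterozygous replicates 1 and 3 were high, and the other 3 homozygous libraries were the lowest of all. Ranked by *HSPB1* in CPM, the 9 libraries stood in exactly the order given by the skeletal muscle marker sum. That sum was 521 and 895 CPM in wild-type and 2318, 361 and 4196 CPM in heterozygous skin. In homozygous skin it was 5535, 38.8, 20.7 and 101.4 CPM. *HSPB7* ran from 0.111 CPM in homozygous replicate 3 to 18.3 CPM in homozygous replicate 1, and *HSPB3* from 0 CPM in homozygous replicates 2 and 4 to 3.34 CPM in homozygous replicate 1. In CPM all 3 genes had their highest values in homozygous replicate 1 and heterozygous replicate 3, the libraries richest in muscle markers. In TPM the match of *HSPB1* with the muscle sum was not exact. *HSPB1* was at 73.7, 57.4 and 49.0 TPM in heterozygous replicates 3 and 1 and homozygous replicate 1. The muscle sum in these libraries was 6081, 3370 and 5410 TPM. Homozygous replicates 2 and 3 also changed places. The log2 fold change of *HSPB1* against wild-type skin was 0.18 ± 1.23 with all libraries and -2.29 without homozygous replicate 1. The part of muscle RNA in these values was not tested. *HSPB2*, the neighbour of the alpha-crystallin gene *CRYAB* in other vertebrates, was nearly flat, at 6.13 to 10.9 CPM.

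**Figure D2:**
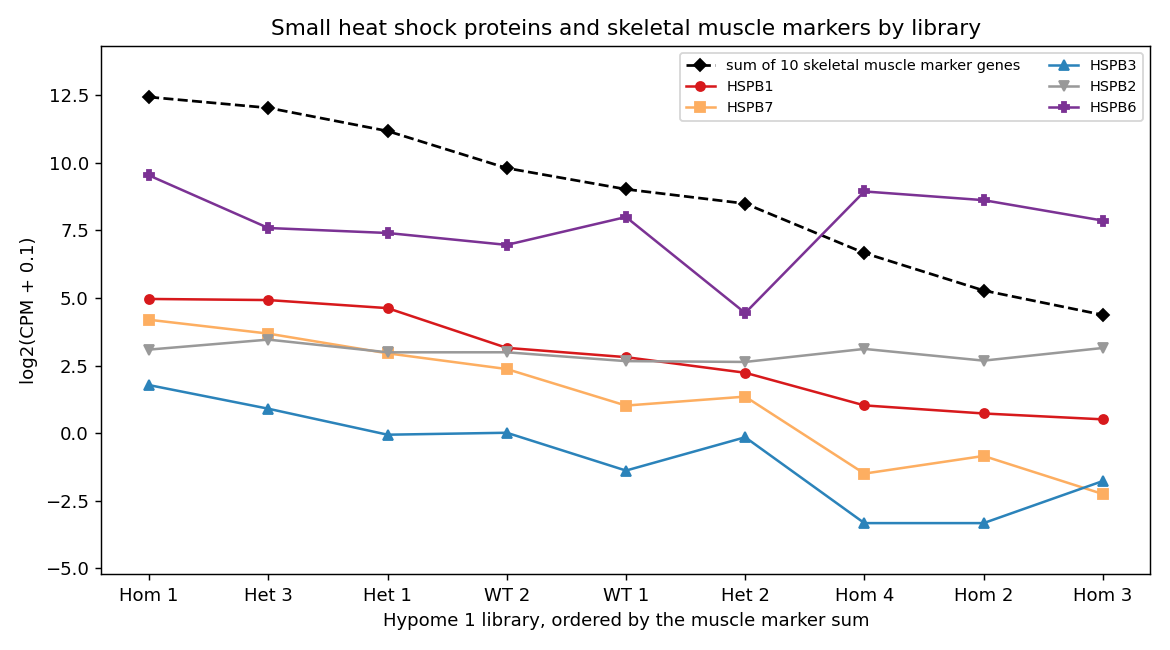
Log2(CPM + 0.1) (y axis) of 5 small heat shock protein genes and of the summed skeletal muscle markers (dashed) in the 9 Hypome 1 libraries, ordered along the x axis by the muscle sum from 5535 to 20.7 CPM. *HSPB1* descends with the muscle sum from 31.2 to 1.33 CPM, while *HSPB6* does not follow it; *HSPB3* at the floor of the plot is 0 CPM.

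Among the 7 cytosolic HSP70 and HSP110 genes, *HSPA2* stood out. *HSPA2*, an intronless HSP70 gene best known in mammals from the testis, lies on Scaffold 2 from 8978399 to 8980800. It had 541.7 and 425 CPM in wild-type, 472, 167 and 539 CPM in heterozygous, and 951, 877, 542.0 and 771 CPM in homozygous skin. The homozygous libraries lay above the rest, but homozygous replicate 3 lay only just above wild-type replicate 1 and heterozygous replicate 3. The log2 fold change was 1.00 ± 0.36 against heterozygous skin (edgeR adjusted p = 0.195, DESeq2 adjusted p = 0.0334) and 0.63 when heterozygous replicate 2 was left out. The log2 fold change was 0.70 ± 0.41 against wild-type skin (edgeR adjusted p = 0.693).

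The other HSP70 genes differed less. *HSPA4L*, an HSP110 relative, had 60.2 and 60.0 CPM in wild-type, 64.9, 35.1 and 66.6 CPM in heterozygous and 84.2, 86.5, 71.2 and 87.3 CPM in homozygous skin, where all 4 lay above the others (log2 fold change 0.57 ± 0.20 against heterozygous skin, edgeR adjusted p = 0.193, and 0.32 without heterozygous replicate 2). *HSPA8*, the constitutive HSP70, ranged from 213 to 367 CPM in the controls and from 265 to 441 CPM in homozygous skin and overlapped in both comparisons. *HSPA8-like* on Scaffold 15 had 378 to 469 CPM in homozygous and 303 to 485 CPM in the other skins, a log2 fold change of -0.15 ± 0.19 against wild-type skin. The study counted only reads that mapped to 1 place, so reads that match both *HSPA8* and *HSPA8-like* would be left out. Their separate levels are therefore uncertain. *HSPH1* lay between 8.49 and 14.7 CPM, with 0.40 ± 0.20 against wild-type and 0.26 ± 0.17 against heterozygous skin on the log2 scale.

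The divergent HSP70 gene *LOC129336546* (*HSPA12B-like*) was the one member with lower values in homozygous skin at an unadjusted p under 0.05 in both comparisons. HSPA12B in mammals is a distant HSP70 relative known from endothelial cells. It had 37.7 and 43.9 CPM in wild-type, 41.2, 75.9 and 35.0 CPM in heterozygous, and 23.1, 26.7, 26.9 and 24.2 CPM in homozygous skin. All homozygous libraries lay below all others, and heterozygous replicate 2 was the highest. The log2 fold change was -1.01 ± 0.23 against heterozygous skin (edgeR adjusted p = 0.0964, DESeq2 adjusted p = 0.00231), -0.60 without heterozygous replicate 2, and -0.69 ± 0.26 against wild-type skin (edgeR adjusted p = 0.505). The sum of 6 endothelial markers was 91.9 to 107 CPM in wild-type, 88.6 to 93.8 CPM in heterozygous and 105 to 112 CPM in homozygous skin. Their log2 fold changes were split, with 3 above and 3 below 0 against wild-type and 5 above and 1 below against heterozygous skin. *VWF* alone had an unadjusted p under 0.05, higher in homozygous skin in both. The part of endothelial RNA in *HSPA12B-like* was not tested. Its relative *HSPA12A* was close to the limit of detection, at 0.569 to 1.45 CPM.

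Of the 6 BAG co-chaperones, which release HSP70 from its client, only *BAG3* had an unadjusted p under 0.05. *BAG3* is induced by stress through heat shock factor 1 in mammals and joins HSP70 to small heat shock proteins and to autophagy. It had 29.6 and 11.01 CPM in wild-type, 20.04, 7.86 and 22.9 CPM in heterozygous, and 77.1, 46.6, 35.5 and 63.5 CPM in homozygous skin. All 4 homozygous libraries lay above all 5 others. The log2 fold change was 1.72 ± 0.44 against heterozygous skin (edgeR adjusted p = 0.111, DESeq2 adjusted p = 0.0202, exact permutation test, 2-sided, p = 0.0286) and 1.46 ± 0.51 against wild-type skin (edgeR adjusted p = 0.485, exact permutation p = 0.0667, the smallest that 4 against 2 libraries allow). The permutation p-values again only restate that the groups do not overlap. The log2 fold change against wild-type skin was 2.34 without wild-type replicate 1 and 0.91 without wild-type replicate 2. *BAG6*, the most abundant, had 93.9 to 130 CPM, with log2 fold changes of 0.01 ± 0.15 against wild-type and 0.19 ± 0.13 against heterozygous skin, and *BAG1* 34.9 to 48.4 CPM.

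Among the J proteins of the cytosol and nucleus, *LOC129343180* (*DNAJA1-like*) on Scaffold 1 had 71.0 and 57.6 CPM in wild-type, 68.8, 49.1 and 65.9 CPM in heterozygous, and 115, 92.7, 75.6 and 108 CPM in homozygous skin. All homozygous libraries again lay above all others. Its log2 fold change was 0.68 ± 0.18 against heterozygous skin (edgeR adjusted p = 0.111, DESeq2 adjusted p = 0.0125) and 0.61 ± 0.20 against wild-type skin (edgeR adjusted p = 0.467). *DNAJA1* itself, on Scaffold 7 and added after its values were seen, stayed between 71.7 and 83.02 CPM in all 9 libraries, with a log2 fold change of -0.01 ± 0.11 against wild-type skin. Reads that match both gene models would be left out of the counts, so their separate levels are uncertain. *LOC129328985* (*DNAJB1-like*), whose mammalian counterpart is the main heat-inducible J protein, had 70.4 and 61.4, then 66.2, 44.8 and 63.9, then 78.8, 76.2, 71.8 and 69.5 CPM, a log2 fold change of 0.35 ± 0.14 against heterozygous skin (edgeR adjusted p = 0.248). An exon of this gene overlaps *LOC129328986* (*GIPC1-like*) on the same strand, so its counts are uncertain. *DNAJB6* and *DNAJA2*, the 2 most abundant of the class, gave -0.23 ± 0.12 and 0.08 ± 0.13 against wild-type skin.

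**Figure D3:**
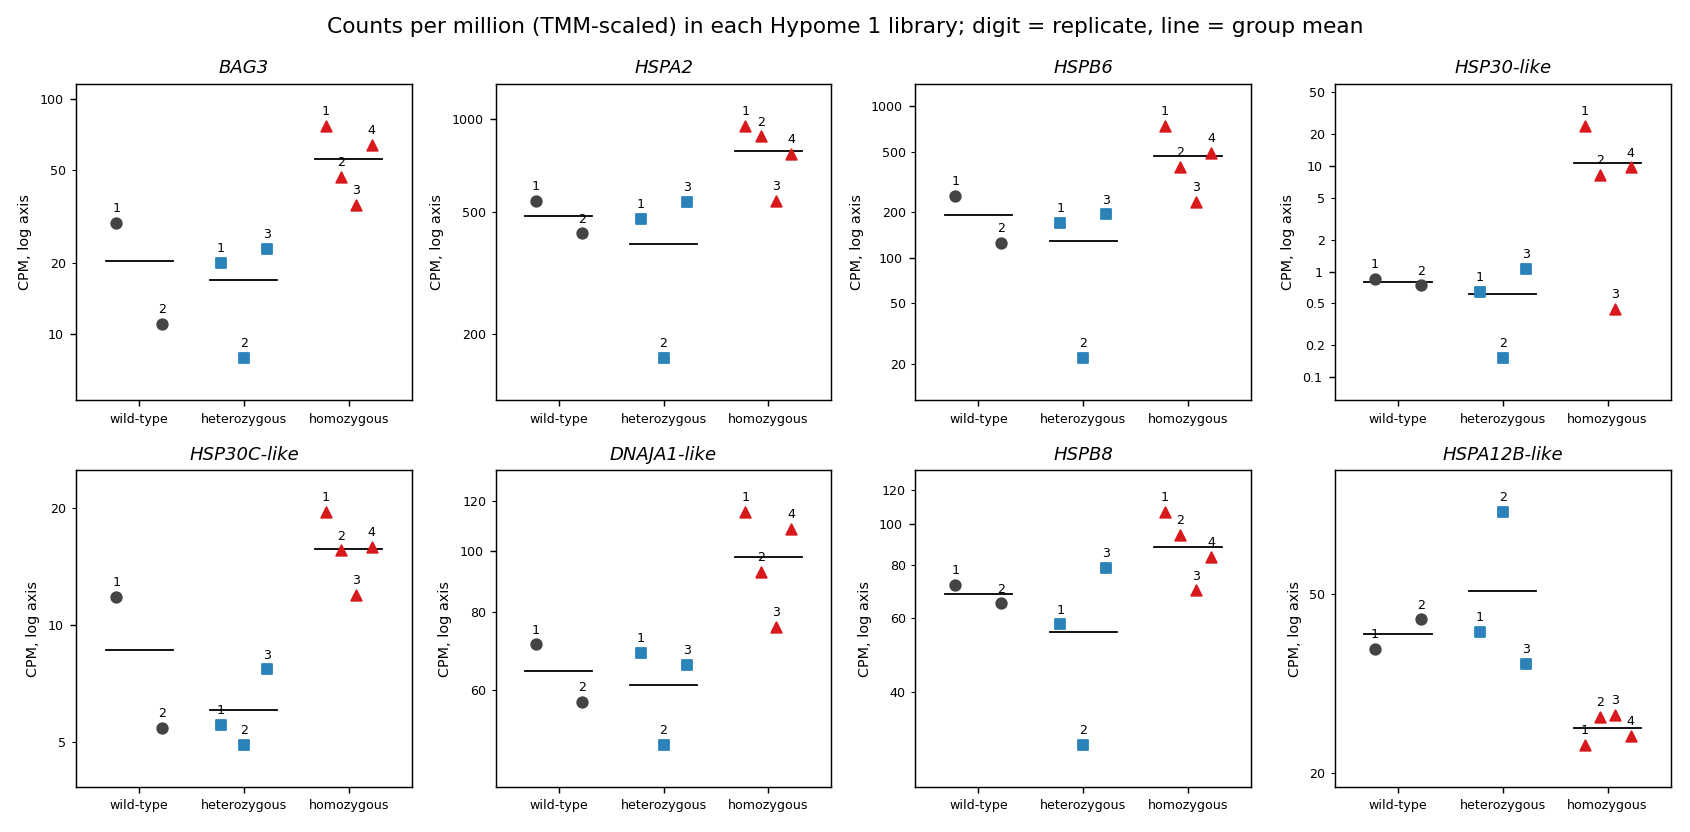
CPM on a log axis (y) of 8 members in the 2 wild-type, 3 heterozygous and 4 homozygous Hypome 1 libraries (x; digits give the replicate, lines the group means). *BAG3*, *HSP30C-like* and *DNAJA1-like* are higher in all 4 homozygous libraries than in the 5 others, *HSPA12B-like* is lower in all 4, and heterozygous replicate 2 is the lowest library for the 7 genes other than *HSPA12B-like*.

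Some of these members ranked the libraries alike. For *BAG3* and *HSP30C-like* the 9 libraries stood in the same order in CPM. The order from high to low was homozygous replicates 1, 4, 2 and 3, wild-type 1, heterozygous 3 and 1, wild-type 2 and heterozygous 2. The keratinocyte marker sum ranked them in the same order, at 4491 and 4093 CPM in wild-type, 4155, 3035 and 4452 CPM in heterozygous and 5680, 5353, 5114 and 5665 CPM in homozygous skin. *HSPA2* differed from this order by 1 exchange of homozygous replicates 2 and 4, and *HSPB6* by 1 exchange of wild-type replicate 1 and homozygous replicate 3. Others differed more: homozygous replicate 3 was the eighth of the 9 libraries by *HSP30-like* and the sixth by *HSPB8*, homozygous replicate 4 was the first by *HSPA4L* and the fifth by *DNAJB1-like*. *HSPA12B-like* ran nearly the opposite way to *BAG3*, with heterozygous replicate 2 first and homozygous replicate 1 last. Not all 7 markers followed this order. *DSP*, at 1322 to 2819 CPM, was the largest part of the sum. *EVPL* was lowest in homozygous replicate 1, at 433 CPM, and *PERP* was highest in homozygous replicate 3, at 706 CPM. *EVPL* alone had log2 fold changes below 0, -0.15 against wild-type and -0.10 against heterozygous skin. Of the 7 keratinocyte markers, 4 were higher in homozygous than in heterozygous skin at an unadjusted p under 0.05, beside 9.7% of all genes. Against wild-type skin 1 was higher, beside 4.97% of all genes. The part of keratinocyte RNA in these values was not tested. The sum of 8 melanophore markers ranked the libraries otherwise, with homozygous replicate 3 first, homozygous replicate 1 seventh and heterozygous replicate 2 last. How many of all genes share the order of *BAG3* was not counted. Homozygous replicates 1 and 4, which lead the order of *BAG3*, are also those of lowest RNA integrity. Without them the log2 fold change of *BAG3* was 1.29 against heterozygous and 1.02 against wild-type skin. That of *HSP30-like* was 2.84 and 2.46, that of *HSPB6* 1.31 and 0.73, that of *DNAJA1-like* 0.47 and 0.40, and that of *HSP30C-like* 1.20 and 0.68. On the TPM scale the keratinocyte marker sum was not in the order of *BAG3*. It was 1437 and 1446 TPM in wild-type, 1329, 1135 and 1493 TPM in heterozygous and 1176, 1389, 1675 and 1683 TPM in homozygous skin. Nor did *BAG3* and *HSP30C-like* share an order in TPM. By *BAG3* homozygous replicates 4 and 1 led, at 49.7 and 42.9 TPM, and heterozygous replicate 2 was lowest, at 7.49 TPM. By *HSP30C-like* homozygous replicates 4 and 2 led, at 31.38 and 27.46 TPM, and heterozygous replicate 1 was lowest, at 11.5 TPM.

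Over all members, 13 of 81 (16.0%) had homozygous libraries that lay entirely above the wild-type ones, beside 9.94% of all genes, and 3 (3.70%) entirely below, beside 9.52%. Against heterozygous skin the counts were 8 above (9.88%, beside 8.94%) and 2 below (2.47%, beside 8.22%). On the TPM scale the balance turned. There 4 members (4.94%, beside 3.59% of all genes) lay entirely above and 16 (19.8%, beside 21.9%) entirely below wild-type skin, and 4 (4.94%, beside 3.61%) above and 9 (11.1%, beside 16.6%) below heterozygous skin. *BAG3*, *DNAJA1-like* and *HSP30C-like* lay above both other genotypes and *HSPA12B-like* below both on each scale. *HSPA2* overlapped heterozygous skin in TPM by 1 library, 476 TPM in homozygous replicate 3 against 477 TPM in heterozygous replicate 3.

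The season of collection can be read from the study's library list by genotype and replicate number. Libraries of all 3 genotypes share one season, namely wild-type replicate 1, heterozygous replicate 3 and homozygous replicates 2 and 3. Within it *BAG3* was at 29.6 and 22.9 CPM in the controls and 46.6 and 35.5 CPM in homozygous skin, *DNAJA1-like* at 71.0 and 65.9 against 92.7 and 75.6 CPM, and *HSPA12B-like* at 37.7 and 35.0 against 26.7 and 26.9 CPM. *HSP30C-like* was at 11.8 and 7.69 against 15.5 and 11.97 CPM, and *HSPA2* at 541.7 and 539 against 877 and 542.0 CPM. *HSPB6* was at 256 and 193 against 394 and 233 CPM, *HSPB8* at 71.7 and 78.7 against 94.0 and 69.6 CPM and *HSP30-like* at 0.854 and 1.06 against 8.27 and 0.443 CPM, and these last 3 overlapped. With season as a factor the log2 fold changes against heterozygous skin became 1.23 for *BAG3*, 0.50 for *HSPA2*, 1.06 for *HSPB6*, 1.10 for *HSP30C-like* and -0.45 for *HSPA12B-like*. They became 0.12 for *HSPB8*, 0.26 for *HSPA4L*, 0.48 for *DNAJA1-like* and 2.38 for *HSP30-like*. The direction held for these 9 genes, the size was smaller for each, and no edgeR adjusted p was under 0.05.

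The chaperonin ring had some of the smallest differences of the set. No chaperonin subunit had an unadjusted p under 0.05 in any comparison. *CCT3* had 374 and 312 CPM in wild-type, 377, 325 and 329 CPM in heterozygous, and 442, 383, 337 and 319 CPM in homozygous skin, and the groups overlapped. The log2 fold changes of the 8 subunits (*TCP1*, *CCT2*, *CCT3*, *CCT4*, *CCT5*, *CCT6A*, *CCT7* and *CCT8*) were all slightly above 0, from 0.01 to 0.17 against wild-type and from 0.05 to 0.26 against heterozygous skin, with standard errors of 0.12 to 0.21. The sign differed between scales. Summed TPM of the ring ran the other way, at 1655 and 1730 TPM in wild-type, 1690, 1559 and 1687 TPM in heterozygous and 1333, 1522, 1555 and 1496 TPM in homozygous skin. Over all genes, 21.9% lay entirely below wild-type skin in homozygous TPM (3.59% above), and 16.6% entirely below heterozygous skin (3.61% above). With scaling to total counts, which lowered the median of all genes as given above, the subunits ranged from -0.20 (*CCT6A*) to -0.04 (*CCT2*) against wild-type and from -0.14 (*CCT8*) to 0.06 (*CCT5*) against heterozygous skin. Prefoldin hands actin and tubulin chains to the ring. Of a list of 8 prefoldin and prefoldin-like genes tested, *URI1*, a prefoldin-like gene, alone had an unadjusted p under 0.05. Its log2 fold change was -0.30 ± 0.11 against wild-type and -0.32 ± 0.10 against heterozygous skin.

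**Figure D4:**
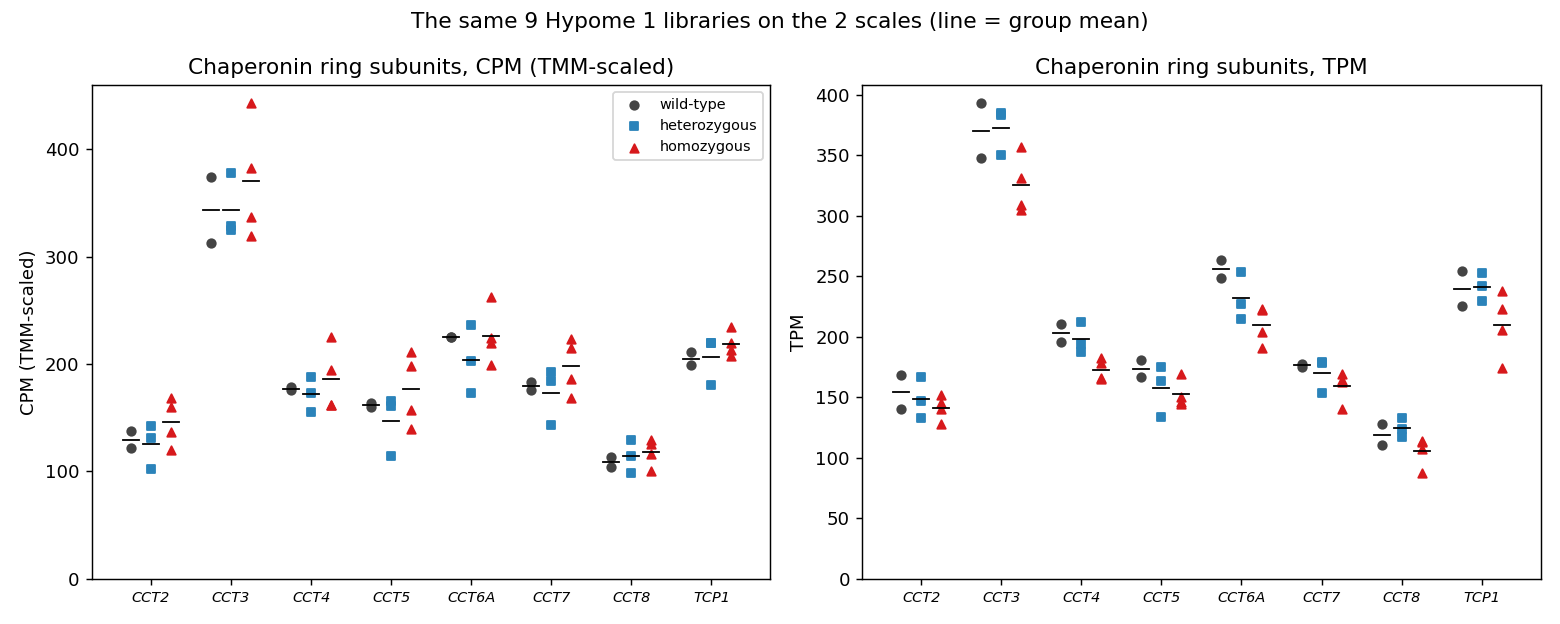
Levels of the 8 chaperonin ring genes (x axis) in the 9 Hypome 1 libraries as CPM scaled by TMM (left) and as TPM (right), with a line at each group mean. The homozygous points overlap the others for all subunits on the left, and sit lower relative to the other genotypes on the right, where the summed ring is 1333 to 1555 TPM against 1559 to 1730 TPM. In homozygous TPM, 21.9% of all genes lay entirely below wild-type and 16.6% entirely below heterozygous skin.

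*HSP90AB1* had 938 and 815, then 933, 684 and 877, then 1038, 953, 910 and 876 CPM in wild-type, heterozygous and homozygous skin, a log2 fold change of 0.11 ± 0.17 against wild-type. *LOC129323905* (*HSP90AA1-like*), which in mammals is the inducible form, had 254 and 239, then 298, 181 and 240, then 241, 274, 330 and 342 CPM (0.27 ± 0.22). Its neighbour on Scaffold 2, *LOC129324017* (*HSP90AA1-like*), reached at most 0.749 CPM. Of the 17 co-chaperones of HSP90 and HSP70 tested, 2 were higher against wild-type skin at an unadjusted p under 0.05. They were *FKBP5* (0.88 ± 0.34) and *PPID* (0.42 ± 0.14), beside 4.97% of all genes. The 1 lower, beside 3.56% of all genes, was *CHORDC1* (-0.31 ± 0.13), a gene inside the Hypome 1 interval. Against heterozygous skin 1 was higher (*FKBP5* 0.65 ± 0.29), beside 9.7% of all genes. None passed adjustment.

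In the endoplasmic reticulum, 1 of 16 members had an unadjusted p under 0.05. *DNAJB9*, a J protein induced by the unfolded protein response, had 16.1 and 16.1 CPM in wild-type, 19.1, 15.9 and 17.1 CPM in heterozygous and 20.8, 19.7, 19.7 and 21.0 CPM in homozygous skin, where all 4 lay above the 5 others (log2 fold change 0.33 ± 0.13 against wild-type, edgeR adjusted p = 0.520). *HSPA5* (BiP), the central target of the same response, had 254 and 355, then 309, 224 and 316, then 380, 335, 286 and 331 CPM with overlapping groups. *HSP90B1* had 404 and 534, then 456, 359 and 483, then 444, 439, 464 and 468 CPM. Of 20 further folding and stress genes of this compartment, *DDIT3*, the transcription factor CHOP, alone had an unadjusted p under 0.05, against heterozygous skin (0.79 ± 0.21, edgeR adjusted p = 0.113).

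In the mitochondrion *HSPD1*, the mitochondrial chaperonin, had 207 and 239 CPM in wild-type, 198 to 259 CPM in heterozygous and 198 to 225 CPM in homozygous skin (-0.06 ± 0.15 against wild-type). *DNAJC15*, the most abundant mitochondrial member per length, had 92.3 and 70.4, then 89.8, 62.8 and 72.4, then 136, 115, 71.6 and 67.8 CPM. Its homozygous libraries formed a high and a low pair, and the log2 fold changes were 0.26 ± 0.29 and 0.38 ± 0.26. The members with an unadjusted p under 0.05 were *DNAJC4* against wild-type skin (0.62 ± 0.26), whose exons overlap an antisense gene, and *DNAJC11* against heterozygous skin (0.31 ± 0.12), and both, chosen after their values were seen, overlapped between groups. None of the 10 further genes of mitochondrial folding and proteolysis and none of the 5 heat shock transcription factors tested had an unadjusted p under 0.05. *HSF1* itself had 34.7 to 37.0 CPM in wild-type, 30.7 to 36.7 CPM in heterozygous and 31.4 to 46.5 CPM in homozygous skin.

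Immediate early genes, which respond to handling of tissue, were listed beside the chaperones. Of 12 such genes tested, 1 was higher against wild-type skin at an unadjusted p under 0.05 (*EGR1*), beside 4.97% of all genes. Against heterozygous skin 4 were higher (*EGR1*, *IER2*, *JUNB* and *NR4A1*), beside 9.7% of all genes. The log2 fold changes were split, with 8 above and 4 below 0 against wild-type and 7 above and 5 below against heterozygous skin. *EGR1* had 11.2 and 7.09 CPM in wild-type, 14.7, 10.3 and 10.5 CPM in heterozygous and 32.0, 22.1, 15.7 and 25.6 CPM in homozygous skin, and *FOS* 4.09 to 6.00 CPM in all 9 libraries. In CPM the homozygous replicates ranked 1, 4, 2 and 3 by *EGR1* and *IER2*, as they did by *BAG3*. They ranked 1, 2, 4 and 3 by *JUNB* and 1, 3, 4 and 2 by *NR4A1*. The summed list gave 425 to 510 CPM in wild-type, 441 to 469 CPM in heterozygous and 466 to 508 CPM in homozygous skin. The part of handling in the chaperone values was not tested.

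How far the members vary among embryos of one genotype sets the scale for these differences. Among the 3 heterozygous Hypome 1 libraries, the highest CPM exceeded the lowest by a median of 1.34 times over the 80 members measured in all of them, beside 1.37 times for all genes. The chaperonin subunits varied by 1.16 to 1.45 times. The small heat shock proteins varied by a median of 3.90 times, up to 8.87 times for *HSPB6*, and *HSPA2* by 3.22 times and *BAG3* by 2.91 times. In the homozygous libraries *BAG3* varied by 2.17 times and *HSP30-like* by 54.7 times.

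The 3 heterozygous Hypome 3 libraries showed the same unequal spread within one genotype of another line. The lines are separate and were counted in separate tables, so the TPM values are set side by side without a test. *HSPA2* had 400, 164 and 477 TPM in Hypome 1 and 190, 215 and 570 TPM in Hypome 3 heterozygous skin. *HSPB6* had 350, 51.9 and 416 TPM and 80.2, 122 and 463 TPM, and *BAG3* 16.5, 7.49 and 19.7 TPM and 10.3, 9.56 and 25.9 TPM. *HSPB8* had 33.5, 20.1 and 47.5 TPM and 23.0, 29.1 and 50.1 TPM. In Hypome 3 these 4 genes were highest together in replicate 3, as they were lowest together in replicate 2 of Hypome 1. *HSPA12B-like* ran opposite in both lines, at 17.6, 37.5 and 15.6 TPM and 39.5, 32.5 and 17.5 TPM. The keratinocyte marker sum in Hypome 3 was 1445, 1521 and 1808 TPM, highest in the same replicate 3.

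*HSP30C-like* did not join this group in Hypome 3, where it had 10.7, 20.4 and 12.2 TPM with its peak in replicate 2. *HSP30-like* stayed at 0.329, 0.506 and 2.15 TPM, below the 15.5 to 36.2 TPM of homozygous Hypome 1 replicates 1, 2 and 4. *HSPB1* had 6.00, 80.4 and 27.5 TPM and the muscle marker sum 237, 3668 and 1716 TPM, again in one order. The highest to lowest ratio in Hypome 3, taken on TPM where that of Hypome 1 was on CPM, had a median of 1.16 times over the members. For all genes it was 1.33 times, for the small heat shock proteins alone 6.15 times and for the chaperonin ring 1.10 times.

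**Figure D5:**
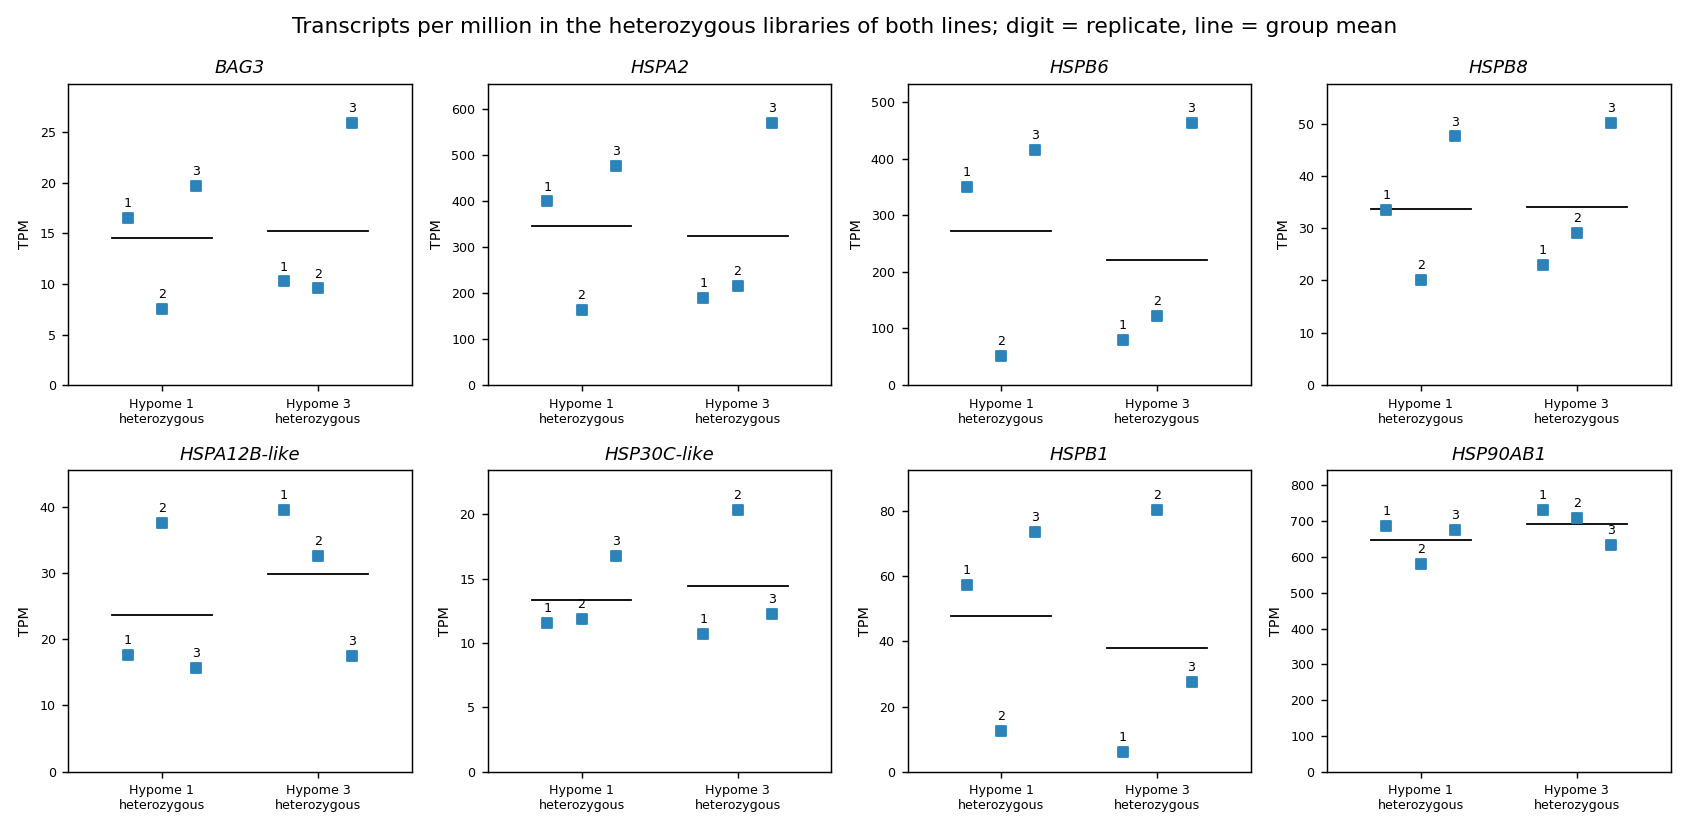
TPM (y axis, from 0) of 8 members in the 3 heterozygous libraries of Hypome 1 and of Hypome 3 (x axis; digits give the replicate, lines the group means). *BAG3*, *HSPA2*, *HSPB6* and *HSPB8* are lowest in replicate 2 of Hypome 1 and highest in replicate 3 of Hypome 3, *HSPA12B-like* is reversed, and *HSP90AB1* stays between 582 and 732 TPM.

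Between the lines as a whole, the Hypome 3 heterozygous values lay entirely above the Hypome 1 heterozygous ones for 18 of 81 members (22.2%, beside 19.6% of all genes) and entirely below for 1 (1.23%, beside 4.21%), the endoplasmic reticulum J protein *DNAJB11* with 43.4 to 44.4 against 50.0 to 53.9 TPM. The 18 were 14 J proteins, 3 BAG genes and *HSPA14*. Examples, chosen like *DNAJB11* after their values were seen, were *DNAJB9* with 26.9 to 28.6 against 21.5 to 22.9 TPM and *DNAJC5*, the synaptic vesicle J protein, with 14.7 to 15.2 against 9.55 to 13.1 TPM. The remaining 62 members tested overlapped between the lines.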

How the data were processed

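Dorsal skin libraries were prepared by the authors with a stranded mRNA kit, aligned with STAR 2.7.10b and counted per gene with featureCounts (Subread 2.0.6), as the labels state, on the authors' leopard gecko assembly. Whether the counting used strand is not stated in the sources used here. The deposited values are raw counts, 1 table per line. In each of them 5 broken lines that named no usable gene row were left out. Per-sample columns that matched no sample by name (3 in all) were not used. They stood in the Hypome 3 table under wild-type names, where the labels give homozygous samples. The genotype of the Hypome 3 heterozygous columns was taken from their names and was not checked otherwise. TPM was computed from the counts and the deposited gene lengths.

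Genes passing edgeR's filterByExpr (minimum count 10) in the 9 Hypome 1 libraries, 16751 of 22064, were fitted with TMM scaling and the edgeR 4.0.16 quasi-likelihood test in R 4.3.3, with Benjamini-Hochberg adjustment over all of them. DESeq2 1.42.0, size factors, filters, halved counts, replicate number, RNA integrity, season, total-count scaling and leaving out each library were alternatives. Scripts were tested on simulated counts of 16751 genes. The simulated spread followed the trend of all genes with their mean level and held no outlying library. Recovery for members that vary more, such as *HSPB6* and *HSP30-like*, was therefore not measured. Of 100 genes with a log2 change of 1, edgeR recovered 48% against wild-type and 57% against heterozygous skin, and DESeq2 45% and 65%. Of 100 with a log2 change of 2, edgeR recovered 81% and 86%, and DESeq2 86% and 89%. False calls numbered 6 and 6 with edgeR and 29 and 37 with DESeq2. P-values measure the spread between these embryos of a single parental pair.

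The members and gene lists were chosen with earlier results of these data known. Members named with values were those called by either tool, the 6 largest non-overlapping increases and decreases at an unadjusted p under 0.05, the 2 with the highest mean TPM in each class, those the study names, the chaperonin ring and the best known inducible members. Exceptions are marked in the text. Same-numbered libraries did not deviate together (correlations from -0.22 to 0.16).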

Additional observations from a re-analysis of the deposited data

Results flagged for a closer look

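Among the 38 members named by rule, 2 had a single homozygous library far from the other 3, where chance alone flags about 1 in 20 groups. *HSPB1* was at 31.2 CPM in homozygous replicate 1, and the gap to the nearest of the others was 0.979 of the range, above Dixon's critical value. *DNAJC8*, a J protein of the spliceosome, was at 48.8 CPM in homozygous replicate 3, below the other homozygous libraries by 0.867 of the range.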

How the results depend on the processing

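No member was called by edgeR in the homozygous and wild-type comparison under the alternatives run, while DESeq2 restricted to these genotypes called 2, *BAG3* and *HSPA12B-like*. Members at an unadjusted p under 0.05, 7 in the reported fit, numbered 11 with edgeR restricted to these genotypes, 4 with RNA integrity as covariate and 2 among libraries with a RNA integrity number of at least 7. Leaving out 1 library gave 0 (without wild-type replicate 2) to 10 (without homozygous replicate 3). Against heterozygous skin DESeq2 called 6 on all libraries and 6 on these genotypes. Leaving out 1 library gave 0 to 2 called with edgeR. The 2 were *HSP30C-like* (edgeR adjusted p = 0.0438) and *HSP30-like* (0.0251) without homozygous replicate 3. That library had the lowest homozygous value of both genes, so these 2 calls are no support for a difference. The members at an unadjusted p under 0.05, 11 as reported, numbered 6 with RNA integrity as covariate, 2 with season as a factor and 8 to 18 with 1 library left out, 18 without homozygous replicate 3. For heterozygous against wild-type skin, 0 as reported, season gave 1 and leaving out 1 library 0 to 2. *HSPB1* against wild-type skin turned from 0.18 to -2.44 among libraries with the higher RNA integrity and to -2.29 without homozygous replicate 1, with 0.54 as the highest value when 1 library was left out, and it was also below 0 with season as a factor (-0.87), total-count scaling (-0.22), RNA integrity as covariate (-1.39) and the replicate block (-0.88). With the replicate number as a block, 5, 10 and 0 members had an unadjusted p under 0.05 in the 3 comparisons and 0 were called. The cause of these shifts was not tested, other than that fewer libraries enter the restricted fits. The share of all genes under each alternative is not given here, so the counts under the alternatives cannot be read as particular to the members. With 2 wild-type libraries, no exact test could give a p under 0.0667 in the homozygous and wild-type comparison. Total-count scaling, chosen after seeing the data, left 6 and 12 members at an unadjusted p under 0.05.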
